A study of Homo sapiens with 3 samples.

Results

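In a pooled library of HCT116 cells, irradiated cells that carried much of their antibody hashtag were compared with irradiated cells that carried little of it. HCT116 is a colorectal cancer line, labelled p53plus. The library, Mix2, held 3 populations. Irradiated (IR) cells, marked with tag8, were given 8 Gy and isolated as giant cells on day 5 or 8. They were kept in culture to day 10 or 11. Repopulated (R) cells, marked with tag7, had regrown after 8 Gy. Cells that were never irradiated (NC) were marked with tag6. About 10000 IR, 1000 R and 1000 NC cells were loaded. Cells of all isolation and harvest days carry tag8, so the days cannot be told apart, and all populations share 1 library.

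Of 13888 barcodes, 11652 had at least 200 detected genes and under 10% mitochondrial unique molecular identifiers (UMIs), and in 9605 of these tag8 accounted for 80% or more of the 3 tags' counts. Strong tag8 cells were the 1372 with 3160 to 9999 tag8 counts, and weak tag8 cells were the 6322 with 500 to 3159. Another 844 cells lay above these ranges and 1067 below. Neither set was analysed as a group, and only the 200 cells of each nearest to the limits are used below. The members were thus 7694 of the 13888 barcodes, chosen by tag counts and not by expression. NC and R levels are from the 817 and 633 cells with as large a share of tag6 or tag7.

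A hashtag is a short barcode on an antibody. The human antibodies of this kind bind ATP1B3 (CD298), a subunit of the sodium pump, and B2M, the light chain of MHC class I, so a cell's tag count depends on how much of these proteins its surface holds and on how well it was stained. Irradiated cells with intact p53 can leave the cell cycle through CDKN1A (p21), which inhibits cyclin-dependent kinases. Arrest with p21 lowers the mRNA of genes used in S phase and mitosis, and cells that stay arrested enlarge and often express secreted and lysosomal genes.

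Strong tag8 cells had more RNA. Their median was 12472 gene UMIs and 3238.5 detected genes, against 7216 UMIs and 2410 genes in weak tag8 cells. Median tag8 counts were 5118.5 in strong cells and 1323 in weak cells. The mitochondrial share was alike, with medians of 6.50% in strong cells and 6.49% in weak cells. Cells over 20000 UMIs made up 7.14% of strong cells and 0.221% of weak cells. All comparisons were therefore repeated within 1 window of 7000 to 11000 UMIs, which held 390 strong cells (median 9099.5 UMIs) and 2664 weak cells (median 8410 UMIs). Levels are CPM, UMIs summed over a group and scaled to 1000000, from 17396284 UMIs in strong cells and 46991674 in weak cells. A group is 1 sample and its cells are not replicates, so no difference was tested and no p-value is given. Ratios carry exact 95% intervals in brackets, which hold the error of counting UMIs and no other.

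The 2 groups were first set apart with 4 marker genes. CDKN1A stood at 824 CPM in strong cells and 265 CPM in weak cells, 3.11-fold higher in strong cells (3.04 to 3.19). GDF15, a stress cytokine of the TGF-beta family and a p53 target, stood at 1046 CPM in strong cells and 414 CPM in weak cells, a ratio of 2.53 (2.48 to 2.58). CST3, the secreted inhibitor cystatin C, stood at 627 CPM in strong cells and 289 CPM in weak cells, a ratio of 2.17 (2.11 to 2.22). MKI67, which encodes the proliferation antigen Ki-67, was lower, at 163 CPM in strong cells and 288 CPM in weak cells, a ratio of 0.564 (0.542 to 0.588). NC cells held 181 CPM of CDKN1A, 315 CPM of GDF15, 240 CPM of CST3 and 333 CPM of MKI67, and R cells 255, 331, 257 and 317 CPM of the same genes, so weak cells lay nearer to NC cells than to strong cells for all 4 genes.

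The differences depended on depth. Within the UMI window they were larger, with a ratio of 3.91 for CDKN1A, 3.59 for GDF15, 2.85 for CST3 and 0.433 for MKI67. With weak cells weighted to the depths of the strong cells the log2 ratios of CDKN1A and GDF15 were smaller, that of CST3 was the same to 2 decimals and that of MKI67 lay slightly further from 0. They were then 1.05 for CDKN1A, 1.19 for GDF15, 1.12 for CST3 and -0.87 for MKI67, against 1.64, 1.34, 1.12 and -0.83 without weights. The ratios narrowed among the deepest cells, those with 16000 to 30000 UMIs (322 strong and 87 weak), where CDKN1A stood at 766 CPM in strong cells and 529 CPM in weak cells. Among the shallowest, with 2000 to 4000 UMIs (28 strong and 324 weak), GDF15 showed no difference beyond counting error, with 829 CPM in strong cells and 862 CPM in weak cells (ratio 0.962, 0.75 to 1.22).

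The levels varied with the tag count, more over the strong ranges than over the weak ones. Over 6 ranges of tag8 counts, CDKN1A was at 255, 232 and 336 CPM in the weak ranges (500 to 999, 1000 to 1999 and 2000 to 3159 counts) and at 651, 944 and 989 CPM in the strong ranges (3160 to 4999, 5000 to 6999 and 7000 to 9999 counts). MKI67 was at 266, 294 and 295 CPM in the weak ranges and at 204, 150 and 105 CPM in the strong ranges. Next to the limit between the groups, the 200 cells just above it (3162 to 3524 tag8 counts) held 496 CPM of CDKN1A and 234 CPM of MKI67, and the 200 just below it (2873 to 3159) held 480 CPM and 259 CPM. GDF15 was at 731 CPM in those just above and 611 CPM in those just below, and CST3 at 397 CPM and 378 CPM, so these cells differed less than the 2 groups as a whole. At the upper end of the strong range, CDKN1A was at 1066 CPM in the 200 cells just inside and 1146 CPM in the 200 just outside. At the lower end of the weak range it was at 347 CPM in the 200 cells just inside and 361 CPM in the 200 just outside. CST3 was at 399 CPM in the same cells just inside and 490 CPM just outside, and GDF15 at 545 CPM and 614 CPM. These levels of CST3 were not below those next to the limit between the groups. Median UMIs moved with the tag count too, at 5720, 7458.5 and 9184 over the weak ranges and 11577, 13098 and 13186 over the strong ranges. Within the UMI window CST3 and GDF15 were higher and MKI67 lower in each range than in the one before it, while CDKN1A was highest at 1140 CPM in the middle strong range, beside 1023 CPM in the top one.

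**Figure D1:**
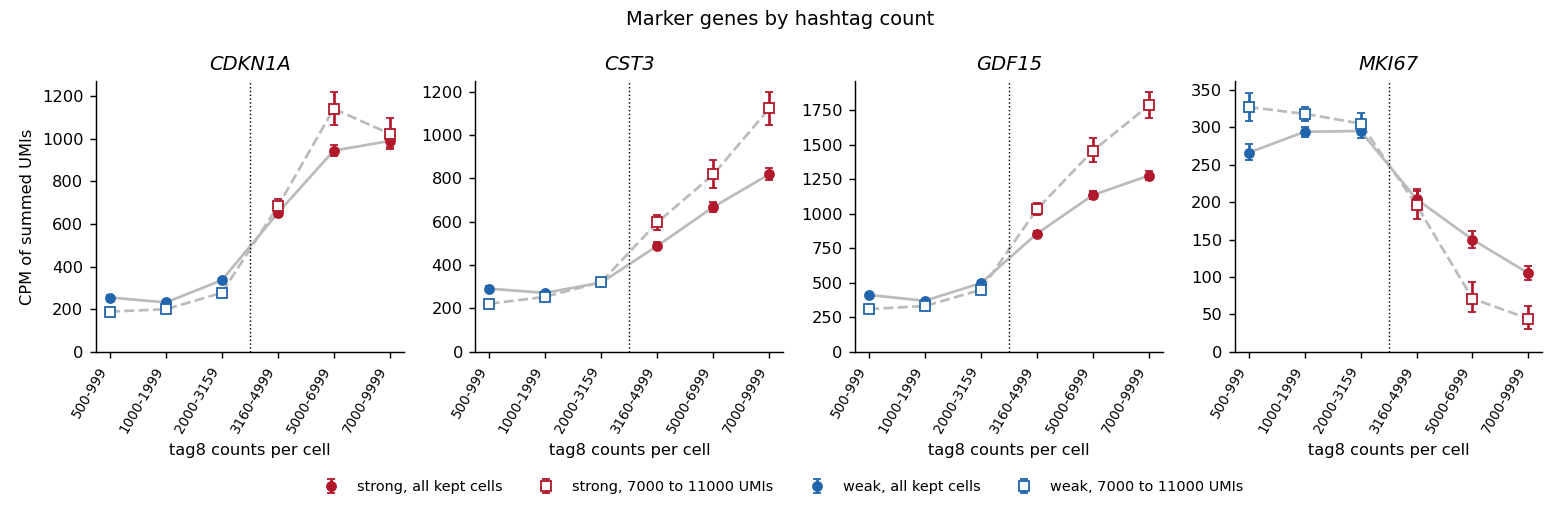
CPM of summed UMIs (y axes) of CDKN1A, CST3, GDF15 and MKI67 in 6 ranges of tag8 counts per cell (x axes, low to high) for strong (red) and weak (blue) cells, over all kept cells (filled circles, solid lines) and within 7000 to 11000 UMIs (open squares, dashed lines). Bars are exact 95% Poisson intervals for counting error, the dotted line is the limit between the groups, and in the top range MKI67 was at 105 CPM over all kept cells and 44.3 CPM within the window.

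As shares of RNA, the genes that the hashtag antibodies bind did not move together. B2M was higher, at 689 CPM in strong cells and 532 CPM in weak cells, a ratio of 1.30 (1.27 to 1.32), and 1.56 within the UMI window. ATP1B3 was lower, at 158 CPM in strong cells and 182 CPM in weak cells, a ratio of 0.866 (0.829 to 0.904), and 0.783 within the window. In UMIs per cell both were higher over all kept cells. ATP1B3 averaged 2.00 UMIs per strong cell and 1.35 per weak cell, and B2M 8.74 and 3.95. Within the window ATP1B3 averaged 1.33 UMIs per strong cell and 1.60 per weak cell, and B2M 7.38 and 4.45. Their summed CPM was 692, 712 and 735 over the weak ranges and 802, 849 and 922 over the strong ranges, and its part in the tag counts was not tested.

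Over all genes, 7640 were measured at 10 CPM or more in strong or weak cells. A gene can thus be measured only through the group where it is higher, as BST2, OASL, TSPAN1 and CEACAM1 below were through strong cells. The counts of higher and lower genes include such genes. Of these, 434 (5.68%) were at least 1.5-fold higher in strong cells and 349 (4.57%) were at least 1.5-fold lower, and the median log2 ratio was -0.02. Within the UMI window 7788 genes were measured, of which 865 (11.1%) were higher and 776 (9.96%) lower. Of 426 higher genes measured in both, 402 were also higher within the window, as were 336 of the 349 lower genes on their side, and 0 changed sign. Scaled by TMM in place of total UMIs, 325 genes were higher and 456 lower over all kept cells, and without mitochondrially encoded and ribosomal protein genes 617 were higher and 328 lower.

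Among genes with at least 50 CPM, hair keratin-associated proteins and kallikreins led the higher genes. The former build the matrix of the hair shaft, and the latter are secreted serine proteases of stratified epithelia. KRTAP3-1 (GRCh38, chromosome 17, 41008521 to 41019324, minus strand) stood at 74.4 CPM in strong cells and 12.7 CPM in weak cells, a ratio of 5.87 (5.33 to 6.48), and 9.50 within the UMI window. Among cells of 2000 to 4000 UMIs it was at 0 CPM in the 28 strong cells and 44.1 CPM in the 324 weak cells (ratio interval 0 to 0.964). KRTAP2-3 stood at 103 CPM in strong cells and 28.1 CPM in weak cells, a ratio of 3.67 (3.41 to 3.94). KRTAP2-3 has near-identical paralogs, so its level is uncertain, and its log2 ratio was 1.27 with weak cells weighted to the depths of the strong cells, against 1.88 without weights. KLK5, a protease that degrades the junctions of shedding skin cells, stood at 53.2 CPM in strong cells and 13.5 CPM in weak cells, a ratio of 3.95. KLK10 had a ratio of 3.13 (112 CPM in strong cells, 35.6 CPM in weak cells) and KLK8 one of 2.46 (126 CPM and 51.1 CPM in the same order). All 10 measured members of a 14-gene list of these and other genes were at least 1.5-fold higher, against 5.68% of all genes. Within the UMI window 10 of 10 were higher, against 11.1% of all genes. The median log2 ratios were 1.65 and 2.21. As the list was chosen with earlier results of these data known, these counts are a description only. The list also holds the carboxypeptidase CPA4 (131 CPM in strong cells, 43.6 CPM in weak cells), the iron-siderophore carrier LCN2 (66.3 CPM and 21.2 CPM) and the ion transport regulator FXYD3 (61.1 CPM and 19.1 CPM).

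Free RNA bears on these low levels in weak cells. Droplets without a cell (100 to 499 gene UMIs, 51277 droplets) held on average 379 UMIs, 2.99% of the mean of a strong cell and 5.10% of that of a weak cell. KRTAP3-1 averaged 0.943 UMIs per strong cell, 0.0941 per weak cell and 0.0488 per droplet without a cell, so the droplet level was 51.8% of that of a weak cell. For CDKN1A these means were 10.5, 1.97 and 0.274 UMIs, and for KLK5 0.675, 0.1 and 0.0195. With the mean droplet without a cell subtracted for every cell, an alternative added after seeing the data, the log2 ratio was 3.50 for KRTAP3-1 and 1.78 for CDKN1A, against 2.55 and 1.64 without it. The same amount is taken from every cell and is a larger part of the level in weak cells. The larger ratios thus follow from the means above and are a description only. Droplets without a cell also held a median of 115 tag8 counts, which is below the 500 counts at which the weak range begins.

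p53 targets were higher as a group. Of 31 measured members of a 40-gene list, 17 were at least 1.5-fold higher in strong cells, against 5.68% of all genes, 0 were lower, and the median log2 ratio was 0.64. Of 32 measured within the UMI window 19 were higher, against 11.1% of all genes, and 0 lower. The members range over arrest, death and repair. TP53I3, an oxidoreductase that raises reactive oxygen, stood at 158 CPM in strong cells and 48.2 CPM in weak cells, a ratio of 3.29 (3.11 to 3.48). TP53INP1, a stress protein that acts in autophagy and death, stood at 35.2 CPM in strong cells and 10.4 CPM in weak cells, a ratio of 3.38. BBC3 (PUMA), a BH3-only activator of apoptosis, stood at 55.2 CPM in strong cells and 21.2 CPM in weak cells, a ratio of 2.60 (2.38 to 2.84). At a mitochondrial limit of 5% the log2 ratios were 1.08 for TP53I3 and 0.96 for TP53INP1, against 1.72 and 1.76 at 10%. BTG2, an antiproliferative regulator of mRNA decay, had a ratio of 2.51, and ZMAT3, an RNA-binding growth suppressor, one of 2.13. Ratios were 1.53 for MDM2, the ligase that degrades p53, 1.40 for BAX, an effector of apoptosis, and 1.33 for DDB2, which recognises ultraviolet damage. ASCC3 was at 58.9 CPM in strong cells and 62.6 CPM in weak cells, a ratio whose interval holds 1 (0.875 to 1.01). Further genes among the 15 with the highest ratios and at least 50 CPM were SFN (14-3-3 sigma), a p53-induced block to mitotic entry, at 1265 CPM in strong cells and 500 CPM in weak cells, MXD4, an antagonist of MYC, at 56.2 CPM and 21.1 CPM, and ASS1, which makes argininosuccinate in the urea cycle, at 149 CPM and 58.0 CPM.

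**Figure D2:**
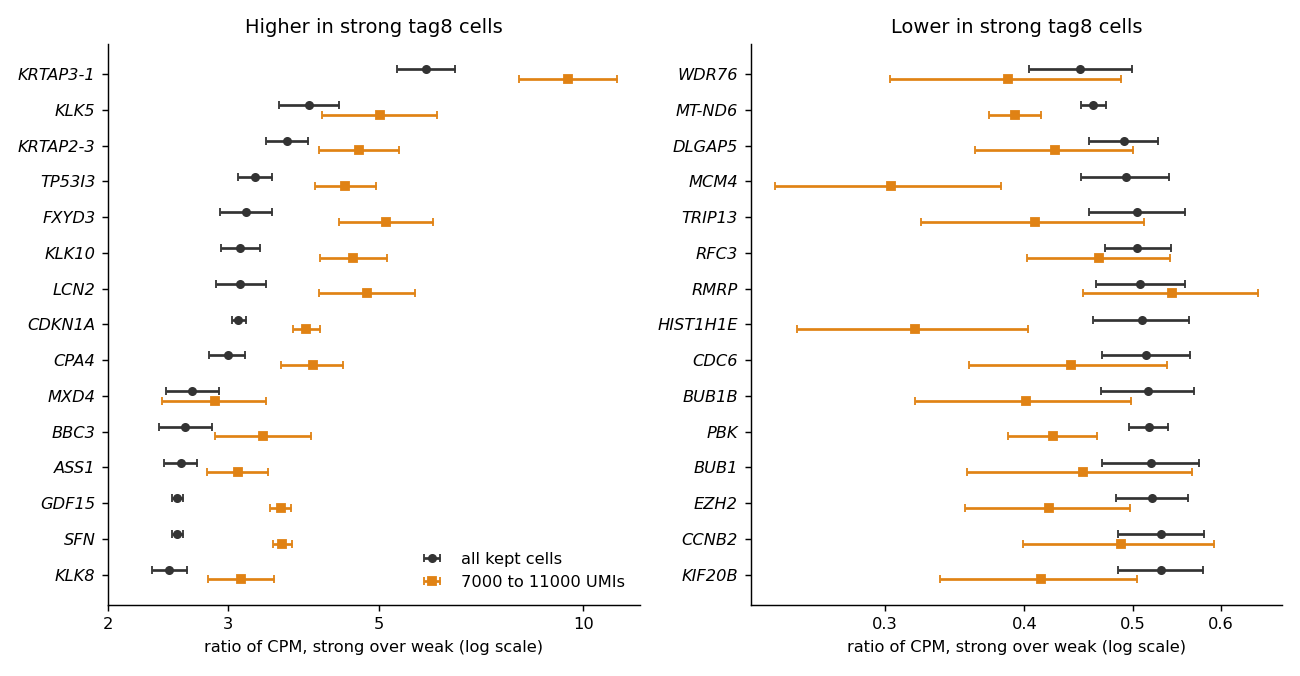
Ratio of CPM, strong over weak tag8 cells (x axes, log scale), of the 15 genes with the highest (left) and the 15 with the lowest (right) ratios among genes with at least 50 CPM, over all kept cells (black circles) and within 7000 to 11000 UMIs (orange squares). Bars are exact 95% intervals for counting error. KRTAP3-1 leads on the left with 5.87 and WDR76 on the right with 0.449, and of the 30 genes only RMRP lay nearer to 1 within the window (0.542) than over all kept cells (0.508).

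Genes of the cell cycle were lower as a share of RNA. Of 56 measured G2 and M phase genes 41 were at least 1.5-fold lower in strong cells, against 4.57% of all genes, 0 were higher, and the median log2 ratio was -0.76. DLGAP5, a spindle microtubule protein, stood at 51.6 CPM in strong cells and 105 CPM in weak cells, a ratio of 0.491 (0.457 to 0.527). The spindle checkpoint kinase BUB1 stood at 26.6 CPM in strong cells and 51.2 CPM in weak cells, a ratio of 0.519 (0.469 to 0.573). CCNB1, the cyclin that drives mitotic entry, stood at 137 CPM in strong cells and 252 CPM in weak cells, and TOP2A, which untangles replicated DNA, at 198 CPM and 328 CPM. All 56 ratios were below 1, and within the UMI window 51 of the 56 were at least 1.5-fold lower, against 9.96% of all genes, with a median log2 ratio of -1.06.

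Promoters of these genes are known to hold 2 elements, the cell cycle homology region (CHR), bound by the DREAM complex, and CCAAT boxes, bound by NF-Y. They were searched on both strands in the 300 bases from 250 before to 50 after each RefSeq start (GRCh38.p14), as TTTGAA or TTCGAA for the CHR and CCAAT for the box, whose matches may share a base. Of the 48 list members with a promoter, 33 (68.8%) held a CHR match and 27 (56.2%) held both elements, against 16.6% and 6.58% of 27305 promoters. Of the 277 lower genes with a promoter 32.5% held a CHR match, against 6.17% of the 324 higher genes and 11.1% of all 6147 measured genes with a promoter. A match is a description of the letters and not of binding. Stretches of 3 promoters of lower genes are shown to let the spacing of the elements be seen, 5′ to 3′ on the strand of the gene, with the matches in capitals. They lie at chr14:55191562-55191738 (minus strand), chr2:110678042-110678157 (minus strand) and chr10:89701444-89701639 (plus strand).
DLGAP5: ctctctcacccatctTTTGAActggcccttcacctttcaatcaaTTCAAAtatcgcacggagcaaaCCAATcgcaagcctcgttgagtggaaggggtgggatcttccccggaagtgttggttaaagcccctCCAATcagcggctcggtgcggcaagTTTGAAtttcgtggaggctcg
BUB1: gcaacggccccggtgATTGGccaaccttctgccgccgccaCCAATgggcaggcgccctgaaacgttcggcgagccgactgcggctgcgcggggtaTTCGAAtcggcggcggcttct
KIF20B: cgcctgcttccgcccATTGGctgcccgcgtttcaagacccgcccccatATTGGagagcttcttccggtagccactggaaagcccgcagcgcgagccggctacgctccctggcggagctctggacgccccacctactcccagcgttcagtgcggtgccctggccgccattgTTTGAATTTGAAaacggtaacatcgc
In each of the 3 stretches 2 CCAAT boxes, written as ATTGG where they lie on the other strand, stand before the last CHR match. KIF20B, a kinesin of the midbody, stood at 34.7 CPM in strong cells and 65.5 CPM in weak cells, a ratio of 0.530 (0.485 to 0.578).

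S phase genes were lower too, and CHR matches were rare among them (2 of 35 promoters). Of 45 measured members 35 were at least 1.5-fold lower, against 4.57% of all genes, 0 were higher, and the median log2 ratio was -0.73. Of the same 45 genes 42 were lower and 0 higher within the UMI window, against 9.96% of all genes lower there. Their summed UMIs per cell over all kept cells averaged 30.4 in strong cells and 28.5 in weak cells. WDR76, which binds damaged chromatin, stood at 23.9 CPM in strong cells and 53.2 CPM in weak cells, a ratio of 0.449 (0.404 to 0.499). The replicative helicase subunit MCM4 stood at 32.9 CPM in strong cells and 66.8 CPM in weak cells, a ratio of 0.493, and 0.304 within the UMI window. PCNA, the sliding clamp, which p53 also induces, differed less, with 126 CPM in strong cells and 156 CPM in weak cells (ratio 0.808). Homologous recombination is the repair path that uses the sister chromatid. Of its 16 measured genes 11 were lower, against 4.57% of all genes, and 0 higher, with a median log2 ratio of -0.78. Within the UMI window 15 of 17 were lower, against 9.96% of all genes. BRCA2, a mediator of this repair, stood at 11.2 CPM in strong cells and 24 CPM in weak cells, a ratio of 0.467 (0.399 to 0.545), and 0.251 within the window. Of 12 measured genes of end joining, which needs no sister chromatid, 3 were lower and 0 higher, with a median of -0.41. Within the window 4 of 12 were lower. The shares of all genes lower were again 4.57% and 9.96%. POLQ had a ratio of 0.592, XRCC1 of 0.615 and RIF1 of 0.657.

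Nuclear proteins whose loss marks senescent cells were lower as well. Of 17 measured members 9 were at least 1.5-fold lower, against 4.57% of all genes, and 0 higher. Within the UMI window 14 of 17 were lower, against 9.96% of all genes. LMNB1, the lamin of the nuclear envelope that senescent cells lose, stood at 21.9 CPM in strong cells and 43.2 CPM in weak cells, a ratio of 0.507 (0.453 to 0.566). HMGB2, a chromatin-bending protein, stood at 206 CPM in strong cells and 373 CPM in weak cells, and EZH2, the methyltransferase of Polycomb, at 49.1 CPM and 94.4 CPM. Many of these genes are expressed with the cell cycle, and the list shares members with the G2 and M list. Of 37 genes of MYC and the nucleolus 1 was lower and 0 higher over all kept cells, and 7 were lower and 0 higher within the UMI window, against 9.96% of all genes. The 1 was NCL, nucleolin, with 1105 CPM in strong cells and 1812 CPM in weak cells (ratio 0.610, 0.600 to 0.620), and the median log2 ratio was -0.30.

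**Figure D3:**
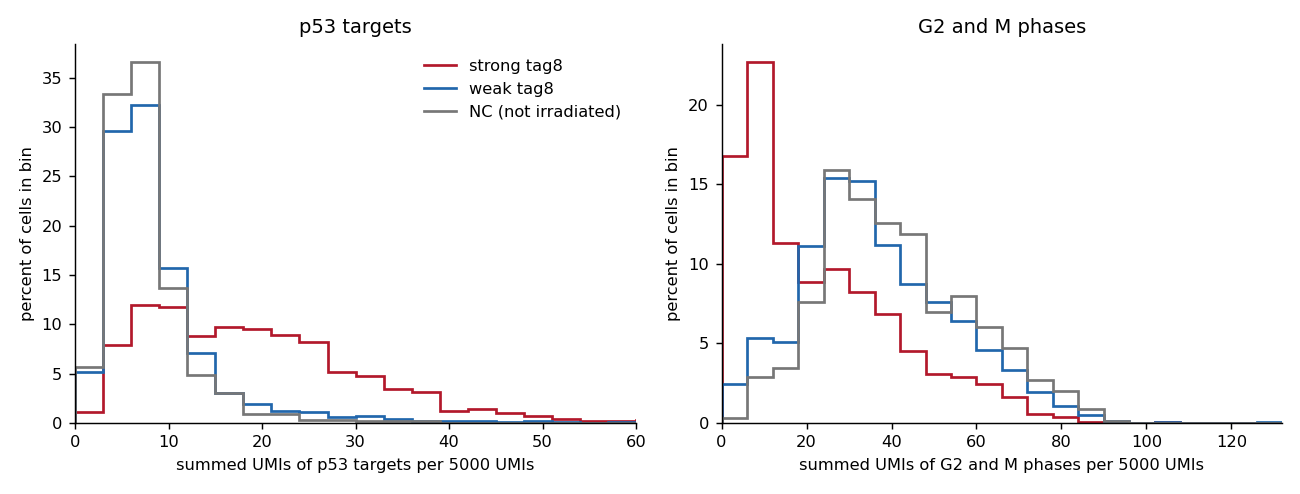
Summed UMIs of p53 targets (left) and of G2 and M phase genes (right) per cell, after every cell was thinned to 5000 UMIs (x axes), as percent of cells in bins of 3 and 6 UMIs (y axes), for strong (red, 1312 cells), weak (blue, 5223 cells) and NC cells (grey, 700 cells). The red curve spreads to high p53 sums and low G2 and M sums with medians of 17 and 17 UMIs, while the weak medians are 7 and 34.

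Cells of the strong group differed among themselves. Thinned to 5000 UMIs, which left out 60 strong and 1099 weak cells below that depth, the summed p53 targets had a median of 17 UMIs per strong cell (quartiles 10 and 26) and 7 per weak cell (5 and 10). The median sum of G2 and M genes was 17 UMIs per strong cell (7 and 33) and 34 per weak cell (24 and 48), beside 38 per NC cell (28 and 53). In 82.8% of strong cells the p53 sum was above the median of weak cells, and in 75.2% the G2 and M sum was below it. A p53 sum of 15 or more with a G2 and M sum under 12 was found in 35.5% of strong cells (32.9% to 38.2%, an exact binomial interval for the sampling of cells from this library, with no replicate error), 5.23% of weak cells (4.64% to 5.87%) and 1.43% of NC cells (0.687% to 2.61%). A p53 sum under 15 with a G2 and M sum of 24 or more, as in most NC cells, was found in 30.5% of strong cells, 72.9% of weak cells and 82.3% of NC cells. These limits divide a continuous range, set after its values were seen, and 24.8% of strong and 10.2% of weak cells lay within 2 UMIs of one of the first pair. Across cells, the p53 and the G2 and M sums had a Spearman correlation of -0.65 in the 1312 strong cells and -0.27 in the 5223 weak cells, at 1 depth and within 1 library, given as a description.

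These sums differed along the tag count. Median G2 and M sums were 33, 33 and 34 UMIs over the weak ranges and 25, 14 and 11 UMIs over the strong ranges, and within the UMI window the strong ranges had medians of 21, 9.5 and 8 UMIs. Median p53 sums were 7, 7 and 7 UMIs over the weak ranges and 13, 19 and 21 UMIs over the strong ranges. In the first strong range the G2 and M quartiles were 9 and 41 UMIs, wider than in the top one, 6 and 23.

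Interferon-stimulated genes, which cells express on sensing interferon or misplaced nucleic acid, were higher in part. Of 22 measured members of a 44-gene list 8 were at least 1.5-fold higher, against 5.68% of all genes, and 0 lower. The median log2 ratio of the 22 was 0.46. BST2 (tetherin), which holds budding virus at the membrane, stood at 24.8 CPM in strong cells and 8.21 CPM in weak cells, a ratio of 3.02 (2.62 to 3.47). OASL, a sensor-like protein of the OAS family, stood at 22.0 CPM in strong cells and 8.64 CPM in weak cells, a ratio of 2.54 (2.20 to 2.93), but its log2 ratio was 0.53 at a mitochondrial limit of 5%, under the limit of 1.5-fold. ISG15, a ubiquitin-like modifier, stood at 1027 CPM in strong cells and 631 CPM in weak cells, a ratio of 1.63 (1.60 to 1.66), and 2.59 within the UMI window. With weak cells weighted to the depths of the strong cells its log2 ratio was 0.26, under the limit of 1.5-fold. OAS3 and EIF2AK2, sensors of double-stranded RNA, had ratios of 0.816 and 0.878. Within the window 25 members were measured and 15 were higher, against 11.1% of all genes, and 0 lower. NC cells held 314 CPM of ISG15, less than either group. Droplets without a cell held 1711 CPM of ISG15, or 0.649 UMIs each, against 13 UMIs per strong cell and 4.69 per weak cell.

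The interferon-stimulated response element (ISRE) was searched as GAAANNGAAA on both strands, where matches may overlap. It was found in 14 of 19 promoters of the measured members (73.7%), against 3.65% of 27305 promoters and 4.94% of those of the 324 higher genes. A pair of promoters of the higher members is shown for its repeated element, with the matches in capitals, at chr19:17405730-17405775 (minus strand) and chr14:94110613-94110665 (plus strand).
BST2: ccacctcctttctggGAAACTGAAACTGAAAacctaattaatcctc
IFI27: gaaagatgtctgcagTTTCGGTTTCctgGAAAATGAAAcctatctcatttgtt
BST2 holds 2 overlapping matches, and IFI27 holds 1 on each strand. IFI27, a mitochondrial and nuclear membrane protein, stood at 24.4 CPM in strong cells and 12.9 CPM in weak cells, a ratio of 1.89 (1.67 to 2.15).

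MHC class I genes, which present peptides to T cells, differed less. Of 13 measured members 3 were higher, against 5.68% of all genes, and 0 lower, with a median log2 ratio of 0.31. Within the UMI window 5 of 13 were higher, against 11.1% of all genes. HLA-B stood at 353 CPM in strong cells and 209 CPM in weak cells, a ratio of 1.69. The peptide transporter TAP1 had a ratio of 1.66, while HLA-C had one of 1.32, and 1.51 within the window. Reads of the HLA genes can be split between near-identical copies, so these levels are uncertain.

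Lysosomal and secreted genes were higher in part. Of 25 measured lysosomal genes 7 were at least 1.5-fold higher, against 5.68% of all genes, and 0 lower, with a median log2 ratio of 0.41. Within the UMI window 13 of 24 were higher, against 11.1% of all genes. GRN, progranulin, stood at 105 CPM in strong cells and 53.1 CPM in weak cells, a ratio of 1.98 (1.86 to 2.10). PSAP, the precursor of the saposins, stood at 276 CPM in strong cells and 149 CPM in weak cells, a ratio of 1.85 (1.79 to 1.92). GLB1, the enzyme behind the senescence-associated beta-galactosidase stain, was low in both, at 10.0 CPM in strong cells and 6.28 CPM in weak cells (ratio 1.59, 1.31 to 1.93). Of 11 measured cystatins and cathepsins 2 were higher, CST3 and legumain, and 1 lower, against 5.68% and 4.57% of all genes. Their median log2 ratio was 0.33. Within the UMI window 4 were higher and 1 lower, against 11.1% and 9.96% of all genes. Legumain (LGMN), a lysosomal protease, had a ratio of 1.84, and the cathepsin CTSV was the other way, at 10.5 CPM in strong cells and 23.8 CPM in weak cells (ratio 0.441, 0.375 to 0.516). Of 16 measured secreted senescence factors 5 were higher and 1 lower, against 5.68% and 4.57% of all genes. Within the UMI window 10 were higher and 1 lower, against 11.1% and 9.96% of all genes. EREG, an EGF receptor ligand, was the lower one, at 171 CPM in strong cells and 289 CPM in weak cells (ratio 0.592, 0.569 to 0.616). The median log2 ratio of that list was 0.49, and it shares GDF15 with the p53 list.

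Epithelial genes were higher in part. Of 15 measured members 4 were at least 1.5-fold higher, against 5.68% of all genes, and 0 lower, with a median log2 ratio of 0.40. Within the UMI window 8 of 15 were higher, against 11.1% of all genes. KRT18 stood at 2198 CPM in strong cells and 1416 CPM in weak cells, a ratio of 1.55, KRT8 at 1508 CPM and 1119 CPM (1.35), and the adhesion molecule CDH1 at 23.5 CPM and 15.9 CPM (1.48). EPCAM, which defines epithelial cells, stood at 297 CPM in strong cells and 339 CPM in weak cells, a ratio of 0.877 (0.850 to 0.905). CEACAM1, an adhesion molecule of epithelia and immune cells, stood at 11.3 CPM in strong cells and 2.21 CPM in weak cells, a ratio of 5.09 (3.99 to 6.52), and a log2 ratio of 1.44 at a mitochondrial limit of 5%, against 2.35 at 10%. No marker of 10 fibroblast, 10 immune and 6 endothelial genes reached 10 CPM in either group, and the summed CPM of these lists was at most 11 in strong cells and 6.70 in weak cells. Of the erythroid list only HBG2 was measured, at 21.6 CPM in strong cells and 32.5 CPM in weak cells.

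Parts of 2 panels that the study drew from its own single cells, sequenced by another method, were also counted. The copies used here hold 27 genes of the budding panel and 5 of the maintenance panel and are not complete, so the counts are for these genes only, and the study looked at the panels in this library too, so their direction is not independent evidence. Beside the counts of these lists, 5.68% of all genes were higher over all kept cells and 11.1% within the UMI window. Of 26 measured genes of the budding panel 8 were at least 1.5-fold higher and 0 lower, with a median log2 ratio of 0.37. Within the UMI window 13 of the panel were higher. SNCG, gamma-synuclein, stood at 152 CPM in strong cells and 94.7 CPM in weak cells, a ratio of 1.60 (1.53 to 1.68), and 2.16 within the UMI window. It was at 89.6, 91.5 and 105 CPM over the weak ranges and 138, 155 and 172 CPM over the strong ranges. NINJ1, a membrane protein of cell rupture, had a ratio of 2.01, and ISYNA1, which makes inositol phosphate, one of 1.72. Of 4 measured genes of the maintenance panel, which holds CST3, 3 were higher and 0 lower, with SELENOM, a selenoprotein of the endoplasmic reticulum, at 226 CPM in strong cells and 112 CPM in weak cells and KRT19 at 1859 CPM and 1156 CPM. Of 31 measured genes of EpiHR, an epithelial high-risk gene set from other work, 13 were higher and 0 lower, and within the UMI window 21 of 34 were higher and 1 lower, with the tetraspanin TSPAN1 at 25.9 CPM in strong cells and 8.04 CPM in weak cells and the laminin receptor subunit ITGB4 at 158 CPM and 83.1 CPM.

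**Figure D4:**
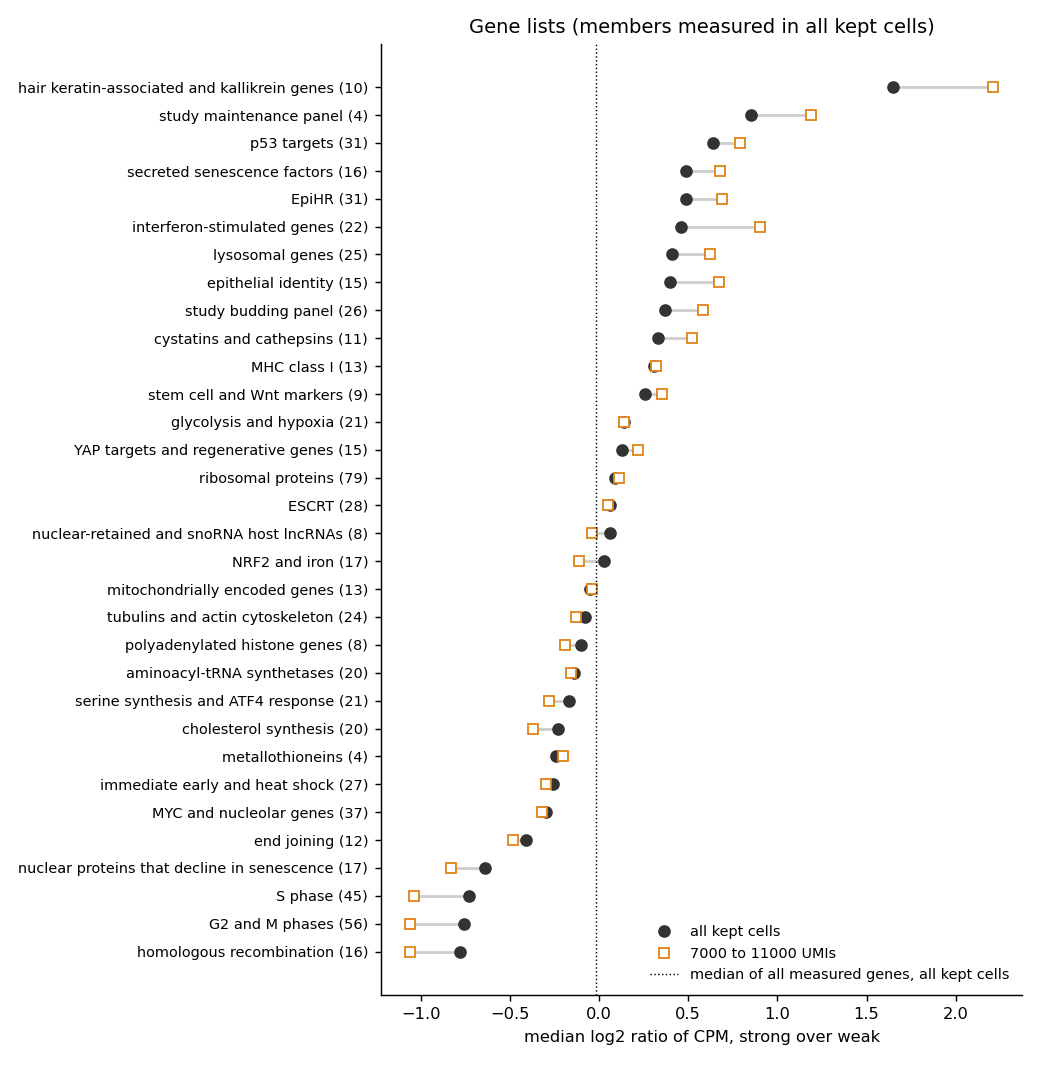
Median log2 ratio of CPM, strong over weak tag8 cells (x axis), of the measured members of the gene lists with at least 4 such members (y axis, members measured over all kept cells in brackets), over all kept cells (black circles) and within 7000 to 11000 UMIs (open orange squares, over the members measured there). The dotted line is the median of all measured genes, -0.02. The hair keratin-associated and kallikrein list lies highest at 1.65 and homologous recombination lowest at -0.78.

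Other lists differed little or unevenly. Beside their counts, 5.68% of all genes were higher and 4.57% lower over all kept cells. Within the UMI window these shares were 11.1% and 9.96%. Among 21 genes of serine synthesis and the ATF4 response 3 were higher and 2 lower, and within the UMI window 3 and 6. ATF3, a stress transcription factor, stood at 47.8 CPM in strong cells and 23.5 CPM in weak cells, a ratio of 2.04, and 4.57 within the UMI window, but a log2 ratio of 0.15 with weak cells weighted to the depths of the strong cells and 0.43 at a mitochondrial limit of 5%, both under the limit of 1.5-fold. PHGDH, the first enzyme of serine synthesis, stood at 28.2 CPM in strong cells and 45.2 CPM in weak cells (0.624). Aminoacyl-tRNA synthetases had 0 of 20 members past the limit in either direction, also within the window. In glycolysis and hypoxia 4 of 21 were higher, as within the window, led by the glucose transporter SLC2A1 at 107 CPM in strong cells and 47.1 CPM in weak cells (2.28). Of 17 NRF2 and iron genes 1 was higher and 1 lower, and within the window 1 and 2, and FTH1, the ferritin heavy chain, with many near-identical copies, stood at 14650 CPM in strong cells and 8176 CPM in weak cells (1.79). The lower one was SLC7A11, the cystine importer, at 9.60 CPM and 14.5 CPM (0.663). In cholesterol synthesis 1 of 20 was higher, TM7SF2 (2.10), and 0 were lower, while within the UMI window 1 was higher and 6 lower. ESCRT genes, which cut membrane necks, had 0 of 28 members past the limit over all kept cells, with a median log2 ratio of 0.06. Within the UMI window 2 of 28 were higher, VPS28 (1.76, 1.63 to 1.89) and CHMP1B (1.65), a smaller share than the 11.1% of all genes. Ribosomal protein genes had 0 of 79 past it, also within the window, with a median of 0.09. Of 13 mitochondrially encoded genes 2 were lower and 0 higher, and within the window 1 and 0. MT-ND6, the complex I subunit on the light strand, stood at 451 CPM in strong cells and 977 CPM in weak cells (0.461, 0.450 to 0.473), and MT-ATP8, an ATP synthase subunit, at 131 CPM and 199 CPM (0.657). MT-ND6 has genes on the opposite strand, and whether strand was used in counting is not given in the sources used here. Of 8 histone genes with polyadenylated transcripts 1 was higher and 0 lower, and within the window 2 of 9 were higher and 2 lower. The 1 was HIST1H2BD, at 20.6 CPM in strong cells and 7.09 CPM in weak cells (2.91), while HIST1H1E, a linker histone outside that list, was lower, at 27.8 CPM and 54.5 CPM (0.510), and 0.319 within the window. Histone genes are near-identical copies, so their levels are uncertain.

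Within the UMI window 4 of 29 immediate early and heat shock genes were higher and 7 lower. As above, 11.1% of all genes were higher and 9.96% lower there, and 5.68% and 4.57% over all kept cells. Over all kept cells, of 27 immediate early and heat shock genes 2 were higher, ATF3 and JUND (277 CPM in strong cells, 166 CPM in weak cells), and 2 lower, the chaperone HSP90AB1 (3308 CPM in strong cells, 5036 CPM in weak cells) and KLF2, a transcription factor (12.7 CPM and 21.5 CPM). Of 24 tubulin and actin genes 1 was lower and 0 higher over all kept cells, and 4 were lower and 1 higher within the UMI window. The 1 was STMN1, which destabilises microtubules, at 279 CPM in strong cells and 428 CPM in weak cells (0.651). Among 15 measured YAP targets and regenerative genes MSLN, mesothelin, had a ratio of 2.13 and the calcium-binding S100A6 one of 1.60. Of the 15, 0 were lower, and within the window 4 of 16 were higher. The highest log2 ratio was 4.57 within the window and 1.09 over all kept cells, and a gene can be measured through strong cells alone. Of 9 stem cell and Wnt markers 1 was past the limit over all kept cells, and 2 were higher and 1 lower within the UMI window. The 1 was ZNRF3, which removes Wnt receptors, at 12 CPM in strong cells and 7.90 CPM in weak cells (1.51, 1.27 to 1.80), and within the UMI window its ratio was 1.27. The 4 measured metallothioneins and the 8 measured nuclear-retained and snoRNA host RNAs had 0 members past the limit over all kept cells, with median log2 ratios of -0.24 and 0.06, and 1 lower member each within the UMI window, MT1F (0.499) and KCNQ1OT1 (0.648). MALAT1, a nuclear RNA, stood at 11939 CPM in strong cells and 15520 CPM in weak cells (0.769, 0.765 to 0.773).

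Several genes counted above lay nearer to 1 than the limit of 1.5-fold under some setting. With weak cells weighted to the depths of the strong cells the log2 ratio was 0.45 for JUND, -0.50 for HSP90AB1, -0.33 for MT-ATP8 and -0.58 for PHGDH. At a mitochondrial limit of 5% it was 0.50 for KRT18, 0.40 for KRT19, 0.51 for S100A6 and -0.46 for XRCC1. Among cells of 4000 to 7000 UMIs it was -0.50 for HIST1H1E, -0.55 for KIF20B, -0.22 for SLC7A11, -0.16 for HBG2 and 0.13 for ZNRF3. Among cells of 11000 to 16000 UMIs it was -0.43 for STMN1, and without mitochondrially encoded and ribosomal protein genes it was -0.57 for RIF1.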

How the data were processed

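Mix2 was made with the 3' kit (v3.1) of 10x Genomics and sequenced on a NextSeq 500. The authors deposited UMI counts per gene and barcode, not normalized, made with Cell Ranger (3.0.1 per the file header) against GRCh38. The submitters' processing notes also name Seurat 2.3 and mm10. The filtered matrix gave the cells, and the unfiltered one, with 0 differing entries over the cell barcodes, the droplets without cells. Mix1 was not used here.

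UMIs were summed per group and scaled to CPM over 33538 genes. A gene was measured at 10 CPM or more in either group and counted past a ratio of 1.5. The text names the 15 highest and 15 lowest ratios at 50 CPM or more (except some given only in the plot), the markers, members of 37 lists with up to 4 of the largest differences each, and the 5 genes that differed most between all cells and the UMI window; further members were chosen after their values were seen. The members and lists were chosen with earlier results of these data known. Some genes that the rule names are not reported here. Doublets were not called. Alternatives changed depth, scaling, tag limits, filters and thresholds. The ratio and its interval were run on simulated counts that held counting error only, the error the interval is built for. That run checks the calculation and cannot show how cells or replicates vary. Python 3.11.15, scipy 1.17.1 and edgeR 4.0.16 (TMM) were used, with gene positions from GENCODE 44 and promoters from RefSeq.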

Additional observations from a re-analysis of the deposited data

How the results depend on the processing

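The counts of genes past 1.5-fold depended on the settings. Over all kept cells, 434 genes were higher and 349 lower in strong cells. Within 7000 to 11000 UMIs these counts were 865 and 776, within 4000 to 7000 UMIs 1806 and 1140, and within 11000 to 16000 UMIs the lower count was 641. With strong cells from 5000 and weak cells up to 2000 tag8 counts they were 726 and 776, and a mitochondrial limit of 5%, which left 314 strong and 1160 weak cells, gave 777 lower genes. A minimum of 50 CPM gave 122 and 142, one of 2 CPM 921 and 566, a limit of 2-fold 76 and 16, and the looser planned limit 1244 and 1265. Within the UMI window, where 865 were higher and 776 lower, the tag8 gap gave 1410 and 1444, the mitochondrial limit of 5% 1419 and 1532 (93 strong and 308 weak cells), 50 CPM 236 and 288, 2 CPM 1704 and 1321, 2-fold 251 and 217, and the looser limit 1754 and 1831. The cause of these differences was not tested, apart from the fold and CPM limits, which change what is counted. Of 66 counts under alternatives 28 differed by over 1.5 times. TMM scaling within the window gave 712 higher and 941 lower genes.

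Of 4403 values of the genes and lists reported here under the alternatives, 1339 lay outside the counting interval of the gene, or for lists 0.1 or more from the median, and 3064 did not. Over the planned and added alternatives to all kept cells the log2 ratio lay between 1.05 and 2.29 for CDKN1A, 0.90 and 1.71 for CST3, 0.89 and 2.05 for GDF15, -1.57 and -0.76 for MKI67, and 1.91 and 3.50 for KRTAP3-1, and over those to the UMI window between 1.78 and 2.45, 1.38 and 1.97, 1.62 and 2.31, -2.47 and -1.17, and 2.5 and 4.27 for the same genes. The thinly filled range of 2000 to 4000 UMIs and that of 16000 to 30000 UMIs are not among these and gave log2 ratios of 0.53 and 0.53 for CDKN1A and -0.06 and 0.63 for GDF15. Subtracting the mean droplet without a cell, an alternative chosen after seeing the data, gave 483 higher and 402 lower genes. The planned subtraction of 10% of UMIs as background left no KRTAP3-1 in weak cells. Its log2 ratio was then not finite and is outside the ranges given above.

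No paired analysis was possible because there is 1 library and no replicate. Depth limits genes of few UMIs, and intervals hold counting error only. Tag8 strength, UMIs per cell and isolation or harvest day cannot be told apart fully, and doublets were not called.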
